A study of Homo sapiens with 4 samples.

Results

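The genes described here are 31 genes of glycolysis, gluconeogenesis and pyruvate metabolism, followed from glucose uptake to the fate of pyruvate, among 19775 genes measured. They were taken from a fixed list of names, and all 31 had at least 1 probe set, the group of short probes that reads a transcript on the array. The 31 genes have 69 probe sets in all, and each gene is represented by its brightest probe set, judged by the average of the 4 arrays, with the others kept as a check.

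The samples were 4 arrays (HG-U133 Plus 2.0) of total RNA from LSTGFBR2, a colon cancer epithelial line that carries the TGF-β type II receptor gene TGFBR2 behind a doxycycline-inducible promoter, made with the T-Rex system. The untreated group has 2 arrays and the TGF-β1 group has 2 arrays, from cells given 5 ng/ml human recombinant TGF-β1 for 16 hours, starting 16 hours after seeding. The protocol text puts doxycycline in the culture from seeding, at 1 μg/ml by the treatment protocol and 1 μM by the growth protocol. The labels of the single arrays do not state which of them received it. Whether the line is a single clone, and whether replicates were separate cultures, is not stated in the labels, so all p-values reflect only how far these arrays vary, and that variation may be technical. Values are RMA expression levels on the log2 scale, so a difference of 1 is a 2-fold difference.

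The arrays of both groups read as epithelial. All 15 measured colon epithelial markers lay above the median of all genes on both replicate 1 arrays, and 14 on both replicate 2 arrays, led by KRT18 at 15.0 ± 0.108 untreated and 15.1 ± 0.130 with TGF-β1 (SD, n = 2), EPCAM at 14.2 ± 0.0624 and 14.2 ± 0.0725, and KRT8 at 14.0 ± 0.163 and 14.1 ± 0.165. Of 10 fibroblast markers, 1 or 2 lay above that median per array, with list means of 6.37 to 6.47 in untreated and 6.16 to 6.21 in TGF-β1 arrays, and the brightest were COL1A1, COL3A1 and DCN. Of 10 endothelial markers, led by PECAM1, ENG and TEK, 0 lay above it, and of 8 measured leukocyte markers, led by CD79A, CD4 and CD3E, 1 or 2 did. COL3A1, a collagen, was the marker of another cell type that differed most, at 9.18 and 7.48 untreated, against 7.38 and 5.83 with TGF-β1 (limma adjusted p = 0.267). Of the epithelial markers, CLDN4, a tight junction protein, rose 1.90-fold (limma adjusted p = 0.0198) and CDX2, an intestinal transcription factor, fell to a 1.66-fold lower level (limma adjusted p = 0.0327). Both were named after their values were seen, and neither passed with any 1 of the 4 arrays left out. With its probe sets averaged, CLDN4 stood at 0.42 in place of 0.92 on the log2 scale and did not pass (limma adjusted p = 0.0623). What part these markers had in the results given below was not tested. The receptor gene itself differed between the groups by 1 of its 2 probe sets. The _s_at probe set of TGFBR2 read 9.44 and 9.55 untreated, against 14.70 and 14.92 with TGF-β1, while the _at probe set read 10.47 and 10.81 against 10.58 and 10.76. The labels do not state whether doxycycline differed between the groups as well. The receptor signal, doxycycline and TGF-β1 therefore cannot be told apart as the source of any difference given below.

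Glycolysis splits glucose into pyruvate. Glucose enters through facilitative transporters, is trapped as a phosphate by hexokinases, is committed by phosphofructokinase, and is then carried through a shared set of enzymes that yield ATP and NADH. Lactate dehydrogenase turns pyruvate into lactate, the pyruvate dehydrogenase complex sends it into the mitochondrial cycle, and kinases of the PDK family switch that complex off. Gluconeogenesis runs the path backwards through a few enzymes of its own, best known from liver and kidney and, in the gut, from the small intestine. Many tumour cells run glycolysis at a high rate, and MYC and the hypoxia-inducible factors are well known activators of these genes.

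Of the 31 genes, 1 rose and 2 fell, and these belong to glucose transport and trapping and to gluconeogenesis. The glucose transporter gene SLC2A1 rose 2.66-fold, the hexokinase gene HK2 fell by 1.35 on the log2 scale, and PCK1, which encodes the cytosolic phosphoenolpyruvate carboxykinase of gluconeogenesis, fell by 2.14. The other 28 did not pass limma's test, which asked for a p under 0.05 after Benjamini-Hochberg adjustment over the 19775 genes. The 3 called genes are 9.68% of the 31, beside 3.34% of all genes called in either direction (1.87% higher and 1.47% lower). At an unadjusted limma p under 0.05, 5 of the 31 were higher and 4 lower, beside 8.18% and 8.54% of all genes. The median log2 fold change of the 31 was -0.0004, beside -0.0036 over all genes, and 20 of the 31 (64.5%) differed by less than 0.2 in size, beside 70.9% of all genes. The rule that the series gives for its TGF-β response genes, an unadjusted limma p under 0.05 and at least a 2-fold rise, took SLC2A1 (1.02% of all genes pass), and its mirror for lower genes took HK2 and PCK1 (0.369% pass). As these are values of bulk RNA, fewer cells with a transcript and less of it per cell cannot be told apart.

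**Figure D1:**
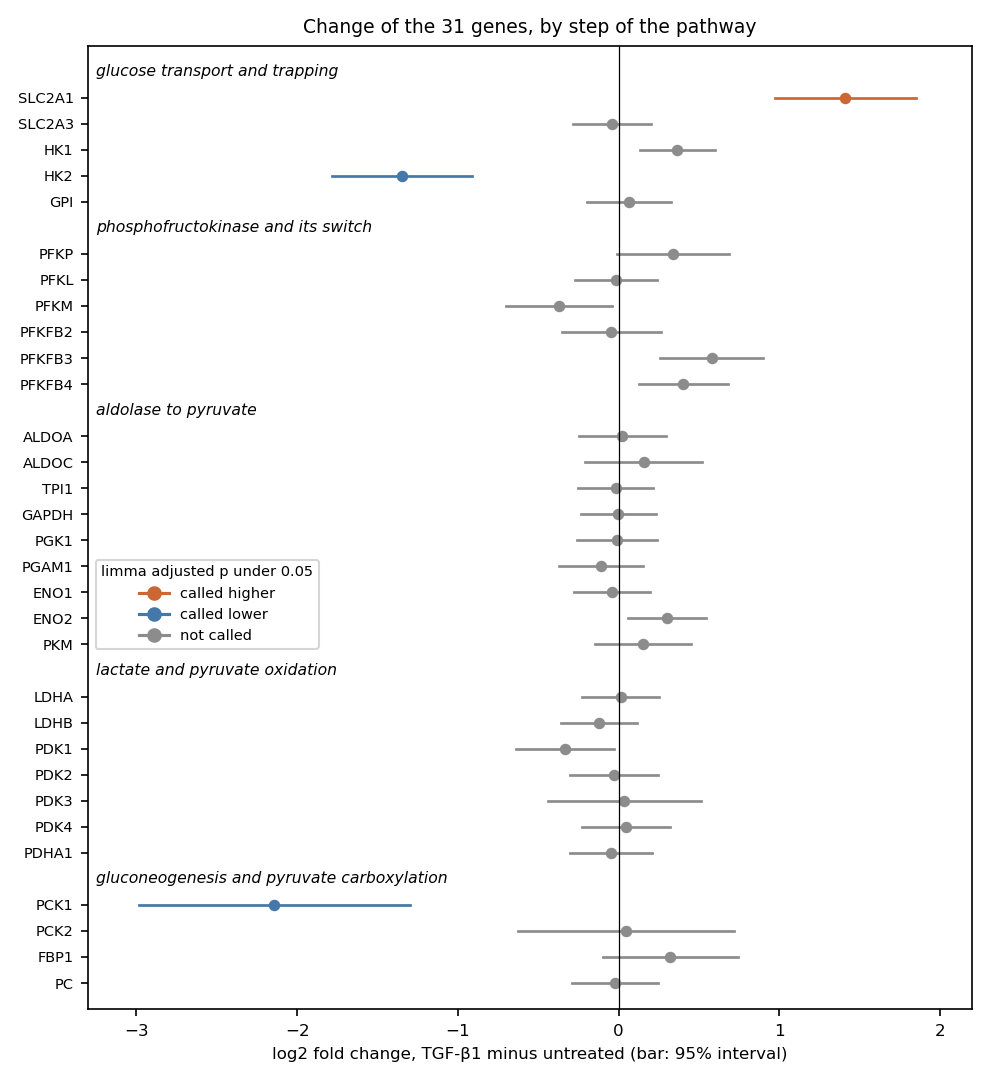
Log2 fold change (TGF-β1 minus untreated, x axis) of each of the 31 genes, grouped by step of the pathway; points are limma estimates from 2 arrays per group and bars their 95% intervals. SLC2A1 lies at 1.41, HK2 at -1.35 and PCK1 at -2.14, while the 9 genes from aldolase to pyruvate lie between -0.11 and 0.30.

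Of the 5 genes of glucose transport and trapping, 1 rose, 1 fell and 3 did not pass. SLC2A1, which encodes the widely expressed glucose transporter GLUT1, read 10.18 and 10.01 untreated, against 11.76 and 11.25 with TGF-β1. Both TGF-β1 arrays lay above both untreated ones by more than 1 log2 unit. SLC2A1 thus differed by 1.41 ± 0.180 on the log2 scale (SE, 2 arrays a group, 95% interval 0.97 to 1.85, limma adjusted p = 0.0185). Its second probe set, dimmer at 6.94 and 6.45 untreated and 8.27 and 8.13 with TGF-β1, moved by nearly the same amount, 1.51 ± 0.178 (SE). It passed when every probe set was tested (limma adjusted p = 0.0306), as 0.954% of probe sets did. SLC2A3, which encodes the high-affinity transporter GLUT3, read between 5.48 and 5.59 on the 4 arrays, under the array medians of 6.57 to 6.61, and its groups overlapped. RMA gives no detection call, so a change of a transcript at that level could have been compressed.

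Of the hexokinase genes among the 31, HK2 fell and HK1 did not pass. HK2, the inducible hexokinase that docks on mitochondria, read 11.59 and 11.32 untreated, against 10.33 and 9.88 with TGF-β1. Every TGF-β1 value lay below every untreated value, and the log2 fold change was -1.35 ± 0.179 (SE, 95% interval -1.78 to -0.91, limma adjusted p = 0.0205), a 2.54-fold lower level. The other HK2 probe sets, both dim, were lower too, at -0.99 ± 0.193 and -0.60 ± 0.138 (SE), and did not pass over all probe sets (limma adjusted p = 0.0899 and 0.133). HK1, the constitutive hexokinase, read 11.56 and 11.56 untreated, against 11.93 and 11.92 with TGF-β1. Replicates nearly coincided in both groups, and the groups did not overlap. Its log2 fold change of 0.37 ± 0.0955 (SE, 95% interval 0.13 to 0.60) did not pass (limma adjusted p = 0.112).

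The difference HK2 minus HK1 within each array was 0.03 and -0.24 untreated, against -1.60 and -2.04 with TGF-β1, a change of -1.71. Such a difference says nothing of the relative amounts of the pair. HKDC1, a hexokinase-related gene outside the 31 that came from the list of other pathway genes, read 9.21 and 9.39 untreated, against 10.90 and 10.88 with TGF-β1. It rose 3.01-fold (log2 fold change 1.59 ± 0.107 SE, limma adjusted p = 0.00261). HKDC1 minus HK2, a pair added after the values were seen, changed by 2.94, from -2.38 and -1.93 to 0.57 and 1.00. The exact permutation test for a single value cannot go below p = 0.333 with 2 arrays against 2, and differences between family members are given as values, with no test. GPI, which converts glucose 6-phosphate to fructose 6-phosphate, read 13.36 and 13.32 against 13.50 and 13.33, a log2 fold change of 0.07 with a 95% interval of -0.19 to 0.33.

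**Figure D2:**
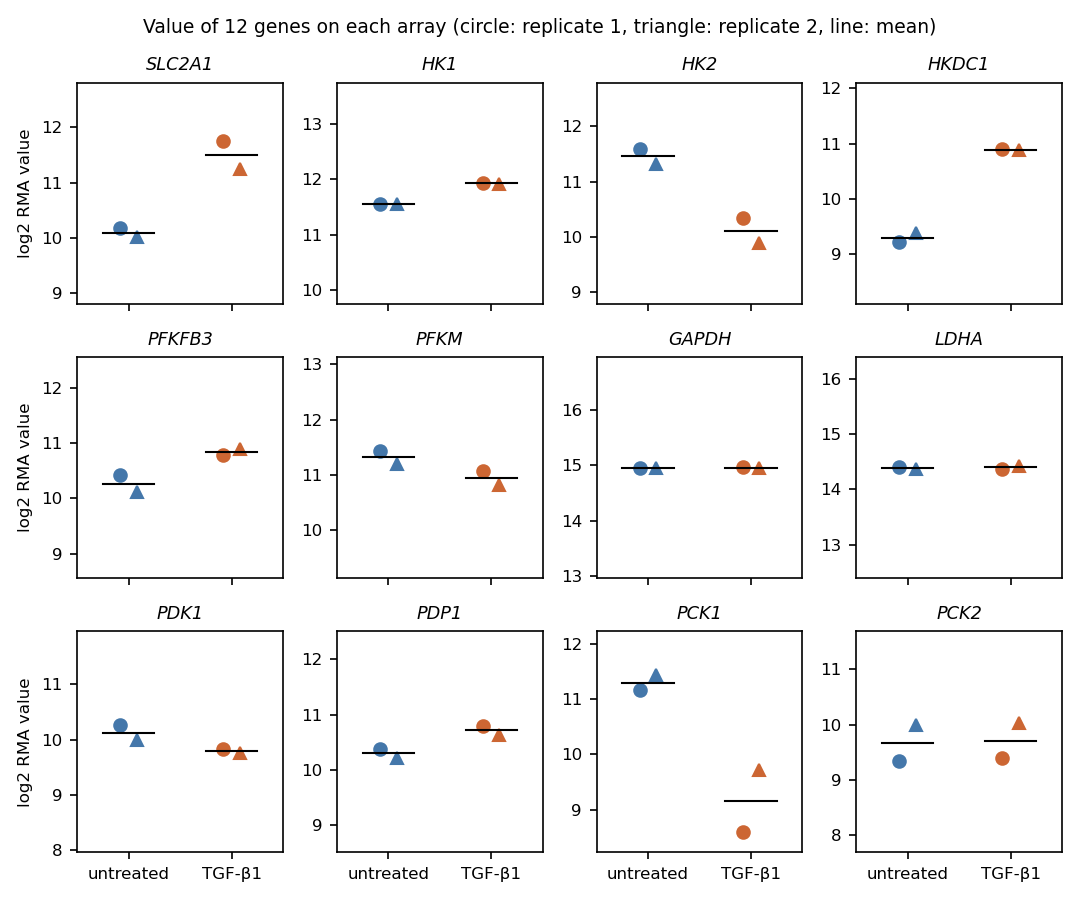
Log2 RMA value (y axis, each panel spanning the same range of log2 units) of 12 genes on the 4 arrays; circles are replicate 1, triangles replicate 2 and lines the group means of 2 arrays. SLC2A1 and HKDC1 lie higher and HK2 and PCK1 lower in the TGF-β1 arrays, GAPDH and LDHA lie at one level, and PCK2 differs by replicate number, not by group.

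The upstream DNA of SLC2A1, HK2 and, for comparison, the lactate dehydrogenase gene LDHA is shown here because these genes stand at the steps that differed and at one that did not pass. The sequences are from RefSeq's GRCh38.p14 promoter table, the 250 bases before a transcript start, read 5′ to 3′ on the gene's strand. Capitals mark ACGTG and GCGTG, the cores of hypoxia response elements, and CACGTG, the E-box that MYC and other factors bind, on either strand. Each CACGTG also holds ACGTG on both strands, so the marks overlap. HK2 and LDHA each have a pair of annotated starts in the table. Only the upstream one of LDHA is shown, because it holds CACGTG, so its E-boxes were fixed by that choice.
SLC2A1, chr1:42958869-42959118, minus strand: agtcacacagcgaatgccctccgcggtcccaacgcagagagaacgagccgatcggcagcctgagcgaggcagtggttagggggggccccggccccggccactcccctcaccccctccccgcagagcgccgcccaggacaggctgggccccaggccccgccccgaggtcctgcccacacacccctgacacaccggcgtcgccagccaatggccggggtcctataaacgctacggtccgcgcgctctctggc
HK2 upstream start, chr2:74833877-74834126, plus strand: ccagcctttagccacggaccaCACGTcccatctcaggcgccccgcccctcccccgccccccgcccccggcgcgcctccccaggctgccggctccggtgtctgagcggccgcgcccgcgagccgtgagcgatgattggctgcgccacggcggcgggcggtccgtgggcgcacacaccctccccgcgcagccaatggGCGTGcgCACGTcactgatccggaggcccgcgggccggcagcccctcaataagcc
HK2 downstream start, chr2:74834920-74835169, plus strand: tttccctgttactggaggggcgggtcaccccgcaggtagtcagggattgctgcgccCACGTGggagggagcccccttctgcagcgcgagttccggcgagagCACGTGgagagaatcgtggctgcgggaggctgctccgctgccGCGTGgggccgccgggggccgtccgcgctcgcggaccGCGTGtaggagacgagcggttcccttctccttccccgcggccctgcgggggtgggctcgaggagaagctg
LDHA upstream start, chr11:18394313-18394562, plus strand: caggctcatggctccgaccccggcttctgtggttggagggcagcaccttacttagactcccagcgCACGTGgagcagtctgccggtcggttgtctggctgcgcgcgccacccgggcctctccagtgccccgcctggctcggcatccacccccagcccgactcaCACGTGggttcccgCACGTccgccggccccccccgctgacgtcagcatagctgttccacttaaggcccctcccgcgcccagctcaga
The window before the downstream HK2 start held 2 E-boxes, as did the LDHA window shown, while the other LDHA window held no E-box and 1 GCGTG. The window of the upstream HK2 start held no E-box, and the SLC2A1 window held none of the 3 motifs. Windows were found for 28 of the 31 genes, 54 in all, as some genes have several starts. CACGTG stood in 7 of the 54 windows (13%), beside 6.34% of the 35116 windows in the table. Besides HK2 and LDHA, those were windows of PFKFB3, ALDOA, ALDOC, GAPDH and PDK2, none of which passed. ACGTG stood in 19 windows (35.2%, beside 18.5%), GCGTG in 16 (29.6%, beside 32.2%), the SMAD core CAGAC in 17 (31.5%, beside 38%), the AP-1 motif TGANTCA in 4 (7.41%, beside 6.57%) and the GC box GGGCGG in 36 (66.7%, beside 42.6%). Some windows of one gene overlap, and a match describes these letters only.

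None of the 6 phosphofructokinase genes passed by limma, though 3 had an unadjusted p under 0.05, 2 higher and 1 lower. Over all genes, 16.7% had such a p. PFKFB3, whose product makes fructose 2,6-bisphosphate, the strongest activator of phosphofructokinase, read 10.41 and 10.12 untreated, against 10.79 and 10.90 with TGF-β1. The groups did not overlap, and the log2 fold change was 0.58 ± 0.131 (SE, 95% interval 0.26 to 0.90, limma adjusted p = 0.0800). PFKFB4, a second enzyme of that kind, read 8.17 and 8.10 against 8.44 and 8.64, a difference of 0.40 ± 0.113 (SE, limma adjusted p = 0.135). Its other probe set gave 0.36. PFKFB2, the form known from the heart, read 7.93 to 8.22 with overlapping groups and a difference of -0.04.

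Of the phosphofructokinase subunits, the platelet form PFKP read 11.46 and 11.77 untreated, against 11.85 and 12.06 with TGF-β1, a log2 difference of 0.34 ± 0.144 (SE, 95% interval -0.01 to 0.69). The muscle form PFKM read 11.43 and 11.21 against 11.07 and 10.83, a difference of -0.37 ± 0.135 (SE, limma adjusted p = 0.240). The liver form PFKL lay between 11.02 and 11.14 on all arrays. The within-array difference PFKP minus PFKM went from 0.03 and 0.57 to 0.78 and 1.23, without overlap, while PFKP minus PFKL overlapped between the groups. Of the 13 pairs of family members compared as planned, 10 had no overlap. The dim second probe set of PFKP did not follow the first, with a difference of -0.0034.

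The 9 genes from aldolase to pyruvate differed little between the groups. None passed by limma, and 1 had an unadjusted p under 0.05. The 95% interval of each of the 9 lay within a 1.5-fold change in either direction, as did those of 79.8% of all genes. GAPDH, the NADH-producing dehydrogenase that is often used as a reference gene, read 14.95 and 14.96 untreated, against 14.96 and 14.95 with TGF-β1, a log2 fold change of -0.0004 ± 0.0955 (SE). Its other 2 probe sets gave -0.0027 and -0.033. These values lie close to the top of the scale, as the brightest probe set of any array read 15.26 or more, and a change there could be compressed. The highest values of ENO1, ALDOA, PKM, PGK1, TPI1 and PGAM1 lay 1.02 to 1.46 below that level. Those of the lactate dehydrogenase genes LDHB and LDHA lay 0.69 and 0.83 below it, so the same limit could hold for all of these.

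Among the other enzymes of this stretch, ALDOA, which splits fructose bisphosphate, read 14.04 to 14.22, TPI1, which interconverts the trioses, 13.85 to 13.91, and PGK1, an ATP-forming kinase, 13.92 to 14.02, each with overlapping groups. PGAM1, which shifts the phosphate, read 13.80 and 13.63 against 13.61 and 13.60, a difference of -0.11. ENO1, the main enolase, differed by -0.04 and PKM, the pyruvate kinase, by 0.15 ± 0.122 (SE). The brain-type aldolase gene ALDOC differed by 0.16 with overlapping groups. ENO2, the enolase known from neurons, read 10.38 and 10.35 untreated, against 10.61 and 10.71 with TGF-β1, a difference of 0.30 ± 0.0997 (SE, 95% interval 0.06 to 0.54, limma adjusted p = 0.199). The difference ENO2 minus ENO1 moved from -3.86 and -3.87 to -3.55 and -3.50 with the probe sets used.

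Several of these abundant transcripts have processed pseudogenes, and for 6 of the 9 genes the probe set used carries the suffix _x_at or _s_at. Either suffix marks probes that may match more than 1 transcript, of the same gene or of another. Where such probe sets could be replaced by others, ENO1 moved from -0.04 to -0.22, by a probe set that read 6.64 to 7.08, and did not pass. For PKM, a second and dimmer probe set differed by 0.60 ± 0.244 (SE, limma adjusted p = 0.375), with 8.14 and 8.06 untreated, against 8.32 and 9.09 with TGF-β1, so that replicate 2 of the TGF-β1 group alone stood high.

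**Figure D3:**
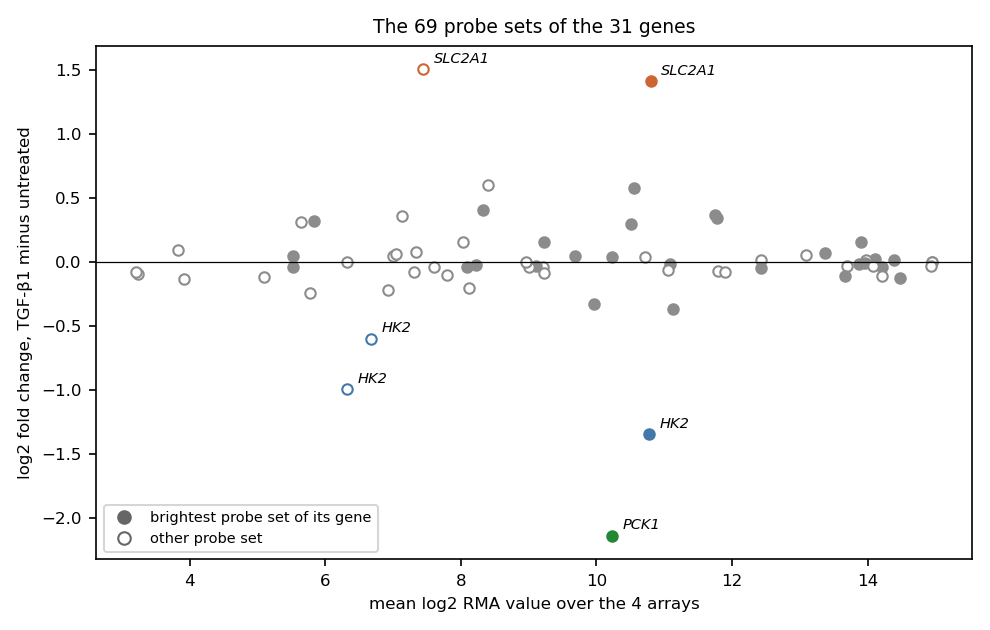
Log2 fold change (y axis) against mean log2 value over 4 arrays (x axis) for the 69 probe sets of the 31 genes; filled points are the probe set used for a gene and open points the others. Both SLC2A1 probe sets lie above 1.4 and all 3 HK2 probe sets lie at -0.60 or below, while PCK1 has 1 probe set.

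Of the 7 genes for lactate and for the use of pyruvate in mitochondria, 0 passed by limma, and 1, PDK1, was lower at an unadjusted p under 0.05. LDHA, the lactate dehydrogenase subunit that favours lactate formation, read 14.40 and 14.37 untreated, against 14.37 and 14.43 with TGF-β1, a difference of 0.01 with a 95% interval of -0.22 to 0.25. LDHB, the other subunit, read 14.51 and 14.57 against 14.41 and 14.43, a difference of -0.12 ± 0.0969 (SE) without overlap, and its second probe set gave -0.11. Groups without overlap were seen for 13 of the 31 genes, 6 higher and 7 lower, beside 44.4% of all genes (21.4% higher and 23% lower). PDHA1, a subunit of pyruvate dehydrogenase that the PDK kinases phosphorylate, read 12.35 to 12.50 with a difference of -0.05. PDK1, the kinase known as a hypoxia target, read 10.27 and 9.99 untreated, against 9.83 and 9.77 with TGF-β1, a difference of -0.33 ± 0.126 (SE, limma adjusted p = 0.258).

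The PDK1 probe sets disagreed. Another gave -0.20 and the dimmest, at 5.47 to 5.91, gave 0.31, so that the mean of the 3 was -0.07. PDK2 lay between 9.02 and 9.22 and PDK4, a kinase induced by fasting, between 5.45 and 5.65, under the array medians. PDK3 read 10.09 and 10.34 untreated, against 9.98 and 10.52 with TGF-β1, with the replicate 2 array the higher one in both groups, and its difference was 0.04 ± 0.195 (SE). PDP1, a phosphatase that switches pyruvate dehydrogenase back on and a gene of the wider list, read 10.38 and 10.22 against 10.80 and 10.63, a log2 fold change of 0.41 (limma adjusted p = 0.136). It is named after its values were seen.

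Of the 4 genes of gluconeogenesis and pyruvate carboxylation, PCK1 fell and 3 did not pass. PCK1 had the largest change in size of the 31 genes. It read 11.16 and 11.44 untreated, against 8.59 and 9.72 with TGF-β1. Both TGF-β1 arrays lay below both untreated ones, though they differed from each other by 1.13. The log2 fold change was -2.14 ± 0.347 (SE, 95% interval -2.99 to -1.30, limma adjusted p = 0.0353), a 4.41-fold lower level with an interval of 2.46-fold to 7.92-fold. Tested over all probe sets, PCK1, which has 1 probe set, did not pass (limma adjusted p = 0.0646). PCK2, the mitochondrial form of the same enzyme, read 9.34 and 9.99 untreated, against 9.40 and 10.02 with TGF-β1. It differed between replicate numbers by about as much in both groups, and its difference between groups was 0.05 ± 0.276 (SE, 95% interval -0.63 to 0.72).

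PCK1 minus PCK2 within arrays went from 1.82 and 1.44 to -0.81 and -0.30. FBP1, the phosphatase that bypasses phosphofructokinase in gluconeogenesis, read 5.47 and 5.88 against 5.85 and 6.14, under the array medians, and its groups overlapped. PC, pyruvate carboxylase, read 8.13 to 8.31 with a difference of -0.02. Of the 13 pairs of family members compared within arrays as planned, some of which share a gene, the changes of 3 pairs, PCK1 minus PCK2, HK2 minus HK1 and SLC2A1 minus SLC2A3, exceeded 1 in size. Each of the 3 holds a called gene. No promoter window was at hand for PCK1, SLC2A3 and PFKFB2.

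**Figure D4:**
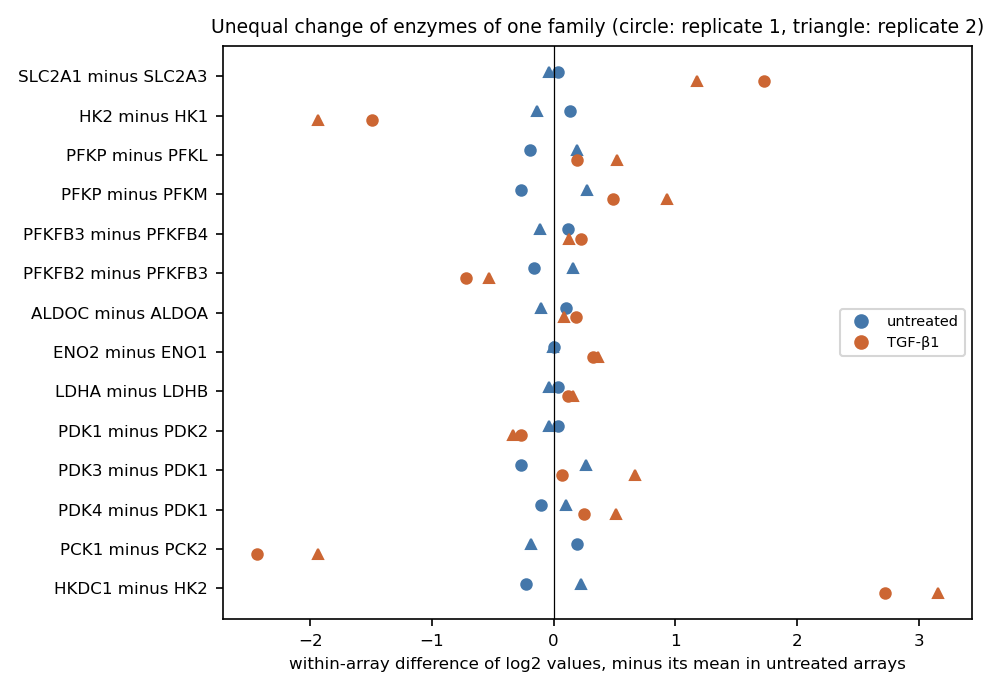
Difference of the log2 values of 2 related genes within each array, set to 0 at its mean in the untreated arrays (x axis); circles are replicate 1, triangles replicate 2. PCK1 minus PCK2 and HK2 minus HK1 lie lower and SLC2A1 minus SLC2A3 higher in the TGF-β1 arrays, and HKDC1 minus HK2 (added after its values were seen) lies 2.94 higher.

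The precision of 2 arrays per group set what could be called. Over the 28 genes that did not pass, the standard error of the log2 fold change ran from 0.0955 to 0.276. The 95% interval of 20 of them lay within a 1.5-fold change either way, that of 8 reached 1.5-fold, and that of 0 reached 2-fold. The 3 calls did not hold in every fit with 1 array left out. Such a fit leaves 1 residual degree of freedom, and fewer of all genes passed in each of them. Why a call was lost there, for these genes or for others in this text, was not tested. With 1 array left out, the adjusted limma p of SLC2A1 was 0.0366 without TGF-β1 replicate 2 and 0.116, 0.111 and 0.0623 without untreated replicate 1, untreated replicate 2 and TGF-β1 replicate 1. That of HK2 was 0.0460 without TGF-β1 replicate 1 and 0.148, 0.0809 and 0.0922 without untreated replicate 1, untreated replicate 2 and TGF-β1 replicate 2. For PCK1 it was 0.0467 and 0.0233 without TGF-β1 replicate 1 and 2, and 0.175 and 0.169 without untreated replicate 1 and 2. The log2 fold changes stayed between 1.16 and 1.66, between -1.57 and -1.12 and between -2.71 and -1.58.

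Further genes of the pathway were read from a list of 50, of which 45 were measured. Of these, HKDC1 rose, 0 fell and 44 did not pass by limma, with 5 higher and 2 lower at an unadjusted p under 0.05, and the median log2 fold change was -0.02. The shares over all genes were 1.87% called higher and 1.47% lower, and 8.18% and 8.54% at that unadjusted limma p. Of the other genes of the pyruvate dehydrogenase complex on that list, PDHB, DLAT and DLD differed by -0.0056, -0.0003 and 0.09, and PDHX, which tethers a subunit of the complex, by -0.25 ± 0.103 (SE) without overlap (limma adjusted p = 0.302). Of the mitochondrial pyruvate carrier, MPC2 differed by -0.0044 and MPC1 by -0.17 ± 0.124 (SE). These 6 were named after their values were seen, and none passed. Of 27 measured genes of the pentose phosphate, hexosamine, serine and glycogen branches, 1 fell and 0 rose by limma, with 2 higher and 5 lower at an unadjusted p under 0.05. The gene was RPIA, an isomerase of the pentose phosphate path, at 10.93 and 10.89 untreated, against 10.13 and 10.27 with TGF-β1 (log2 fold change -0.71 ± 0.105 SE, limma adjusted p = 0.0278). RPIA did not pass with any 1 of the 4 arrays left out, nor with the replicate number as a block (limma adjusted p = 0.0503). Of 17 genes of the tricarboxylic acid cycle, 0 passed by limma and 0 had an unadjusted p under 0.05. The differences that led that list were -0.22 for SDHD and 0.14 for OGDH.

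**Figure D5:**
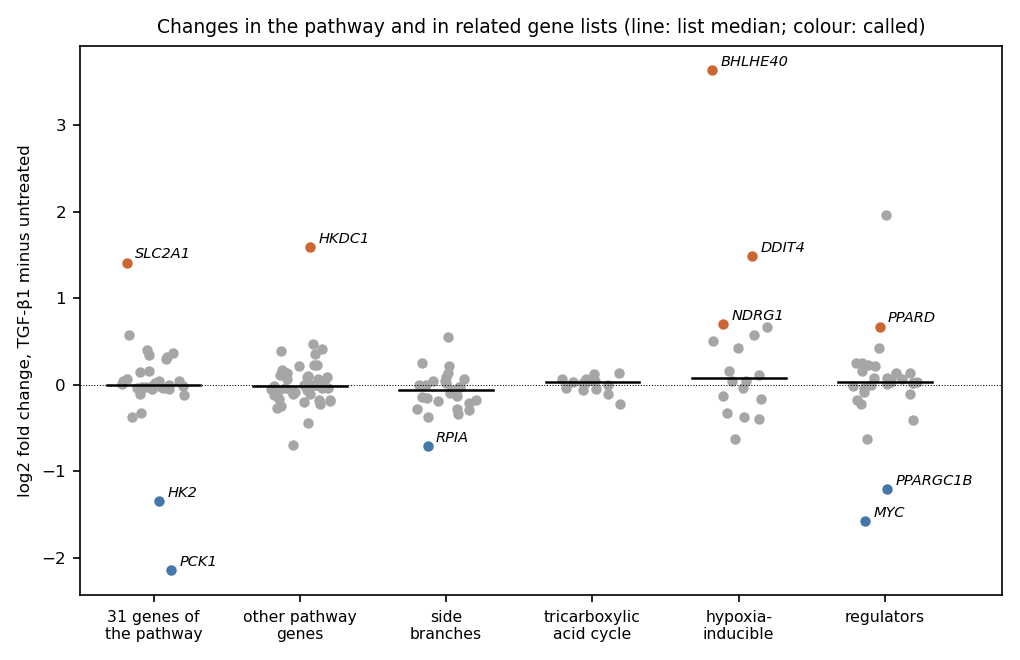
Log2 fold change (y axis) of the 31 genes and of 5 related lists; each point is a gene, lines are list medians and colour marks genes called by limma. The medians lie between -0.06 and 0.08, and 3 of the 31 genes, 1 of 45 other pathway genes, 1 of 27 side-branch genes, 0 of 17 cycle genes, 3 of 18 hypoxia-inducible genes and 3 of 30 regulators are coloured.

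Among 18 measured hypoxia-inducible genes outside glycolysis, 3 rose and 0 fell, with 7 higher and 3 lower at an unadjusted p under 0.05 and a median of 0.08. Over all genes, 1.87% were called higher and 1.47% lower, and 8.18% and 8.54% had such an unadjusted limma p. The list was chosen with earlier results of these data known, so its counts are description only. The 3 genes of the list that rose were BHLHE40, a transcriptional repressor (12.4-fold), DDIT4, which restrains mTOR (2.79-fold), and NDRG1 (1.62-fold). With all its probe sets averaged, the log2 fold change of BHLHE40 was 2.92 in place of 3.63 and still passed. VEGFA, the angiogenic factor, and EGLN1, a prolyl hydroxylase that marks HIF for decay, both named after their values were seen, differed by -0.17 and -0.03. Of 30 measured regulators of glucose metabolism, 1 rose and 2 fell, with a median of 0.03. PPARD, a fatty acid-sensing nuclear receptor, read 9.49 and 9.47 untreated, against 10.15 and 10.15 with TGF-β1 (log2 fold change 0.67 ± 0.0957 SE, limma adjusted p = 0.0250). PPARGC1B, a coactivator of mitochondrial genes, read 8.73 and 8.58 against 7.36 and 7.54 and was 2.31-fold lower (limma adjusted p = 0.00811). MYC was 2.98-fold lower, from 12.1 ± 0.103 to 10.5 ± 0.0955 (SD, n = 2, limma adjusted p = 0.00311). NDRG1 and PPARD did not pass with any 1 of the 4 arrays left out, and PPARGC1B passed only without TGF-β1 replicate 2. With the probe sets of a gene averaged, PPARGC1B stood at -0.45 in place of -1.21 and PPARD at 0.39 in place of 0.67, and neither passed (limma adjusted p = 0.0573 and 0.0817).

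Of the genes for oxygen-regulated HIF subunits, the list held HIF1A and EPAS1, and neither passed. HIF1A, for HIF-1α, read 12.93 to 13.06 on the 4 arrays with a difference of -0.04. EPAS1, which encodes HIF-2α, read 8.24 and 7.26 untreated, against 10.13 and 9.29 with TGF-β1, with no overlap and a log2 fold change of 1.96 ± 0.381 (SE) that did not pass (limma adjusted p = 0.0543). PPARGC1A, a coactivator that drives PCK1 in liver, read 8.57 and 8.32 against 7.82 and 7.81, a difference of -0.63 ± 0.119 (SE, limma adjusted p = 0.0504). These 3 were named after their values were seen. What part MYC, EPAS1 or these coactivators had in the levels of SLC2A1, HK2 and PCK1 was not tested.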

How the data were processed

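The deposited table lists 54675 probe sets, 62 of them controls, on each array. Per the series' design text and the submitters' processing notes, the authors made these deposited values with RMA (background correction, quantile normalization, summarization). No RMA version is named in these sources. The log2 scale of the deposited values was judged from their range, 2.48 to 15.34. Quantile normalization forces 1 distribution on the arrays and hides any shift that most transcripts share, and RMA makes no detection call.

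Gene names came from the platform annotation, which pairs 41097 probe sets with 1 symbol (41043 updated through the Entrez ID) and 1801 with several, which were not used. For each of 19775 genes the probe set with the highest mean was kept. Groups, taken from the sample titles, were tested by limma (version 3.58.1, R 4.3.3: lmFit, eBayes without trend, two-sided, all 4 arrays, no covariate, no filter). The test has 6.13 degrees of freedom. It was also run on simulated arrays with independent noise. As these held no difference shared by replicate number, they cannot show how the test performs where there is one. A gene was called where its p, after Benjamini-Hochberg adjustment across genes, was under 0.05. Across genes, which are not independent replicates, the correlation was 0.996 between replicates and 0.990 to 0.992 between groups.

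The members, the related lists and the tests were chosen with earlier results of these data known. Named genes are the 31 members, up to 6 called genes of each related list by size of change, or its 2 with the largest change where none was called, and the 3 brightest of each marker list. Others are said to be named after their values were seen. The alternatives were a minimum mean of 5 or 7, an intensity trend, centring on array medians or on housekeeping genes (6 of 8 measured), other probe set choices, a replicate block, other thresholds and each array left out.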

Additional observations from a re-analysis of the deposited data

How the results depend on the processing

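The 3 calls (SLC2A1 higher, HK2 and PCK1 lower) held in each of the 8 gene-level fits that used all 4 arrays. These were both minimum levels, the intensity trend, both centrings, averaged probe sets, other probe sets preferred and the replicate block. The minimum levels, the trend and the block leave the log2 fold changes as they were, and a centring shifts all of them alike. PCK1 has 1 probe set, so neither probe set choice could change its values, and preferring other probe sets left HK2 unchanged. The 8 fits are therefore not independent support. No paired design is stated in the labels; deviations of same-numbered arrays correlated at 0.364 across all genes and 0.72 across the 31, and replicates differed in the same direction in both groups for 71% of the 31 and 58.1% of all genes. With the replicate block 561 genes were called in place of 660, and the members called stayed at 1 and 2. Centring on medians and on housekeeping genes shifted all differences by 0.0078 and -0.0108. With every probe set tested, 1 member fell in place of 2, as PCK1 did not pass. At an unadjusted p under 0.05, 5 members were higher and 4 lower, and 3305 genes passed. With a further 2-fold minimum, 234 genes passed. With 1 array left out, 0 to 1 members rose, 0 to 2 fell and 70 to 104 genes were called, since 1 residual degree of freedom is left and the lone array is assumed to vary like the other group. By the mirror of the series' rule, 1 member in place of 2 was lower with averaged probe sets, where HK2 stood at -0.98. Of the 28 other members, 15 changed sign in at least 1 alternative and 0 were called in any. Among the genes outside the 31, RPIA did not pass with the replicate block (limma adjusted p = 0.0503), and PPARGC1B, PPARD and CLDN4 did not with averaged probe sets (0.0573, 0.0817 and 0.0623); RPIA, NDRG1, PPARD, CLDN4 and CDX2 passed in 0 of the 4 fits with 1 array left out, PPARGC1B in 1, and HKDC1, DDIT4, BHLHE40 and MYC in 4. The cause of these losses was not tested.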

Other observations

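For 17 of the 31 genes (54.8%), the difference between replicate numbers, averaged over the groups, was larger in size than the difference between TGF-β1 and untreated arrays, beside 43.8% of all genes. PCK2 read lower on both replicate 1 arrays, by 0.66 in the untreated and 0.62 in the TGF-β1 group, and PDK3 by 0.25 and 0.54. FBP1 was lower there by 0.41 and 0.29, while ALDOC was higher there by 0.29 in both groups. These genes were chosen after their values were seen.

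A probe set of ENO1 that was not the one used read 9.75 and 8.71 untreated, against 8.62 and 9.76 with TGF-β1. It was the only one of the 69 probe sets whose replicates differed by 1 or more in both groups, as 73 of all 54675 probe sets (0.13%) did. Another probe set of PGK1 read 8.65 and 7.04 against 7.31 and 8.18, high on the same 2 arrays. The probe sets used for ENO1 and PGK1 read 14.16 to 14.24 and 13.92 to 14.02.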
